A study of Bos taurus with 24 samples.

Results

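The comparison described here set bovine subcutaneous adipocyte cultures given a mixture of palmitic acid (PA) and oleic acid (OA), called MIX, against cultures given OA alone, both collected at day 4. It rests on 6 of the 24 RNA-seq libraries of the study: 3 MIX and 3 OA libraries, chosen by their labelled treatment and time and paired by the labelled cow (cows 4, 5 and 6). MIX cultures received 60% PA and 40% OA at 300 µM in all, which is 180 µM PA with 120 µM OA. OA cultures received 300 µM OA. The total amount of fatty acid was therefore the same, and PA took the place of part of the OA. All 6 cultures were grown from pre-adipocytes of Holstein cows in the same medium, with 5 µM troglitazone (a drug that activates the receptor PPARG), 5 µg/mL insulin and acetate throughout. Dexamethasone at 1 µM and isobutylmethylxanthine, an inhibitor of phosphodiesterases, at 0.5 mM were added for the first 48 h of induction. In the day 4 cultures the fatty acids were present from induction on. The same cows also gave PA and untreated (CON) cultures at day 4, which entered the fit as a source of replicate error. Cows 1 to 3 gave a day 7 set of the same 4 treatments, begun 48 h after induction.

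Palmitic acid is the main saturated fatty acid made by animals, and oleic acid is a monounsaturated one that cells also make themselves with the desaturase SCD. Long-chain fatty acids bind the nuclear receptors of the PPAR family, which switch on genes of fatty acid oxidation and storage such as PDK4, CPT1A, ANGPTL4 and PLIN2. Cholesterol is handled by a pair of opposed systems: SREBF2 switches on genes of cholesterol synthesis and uptake when sterols are low, and the LXR receptors switch on the exporter ABCA1 and the ubiquitin ligase MYLIP when sterols are high. The comparison asks which of these genes differ when part of the oleic acid is exchanged for palmitic acid, and how large any difference can be.

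The 6 libraries held between 13509548 and 17071654 counts on genes, so that the 3 counts taken as a floor came to at most 0.222 CPM (counts scaled to a common library size). Adipocyte markers were uneven in these cultures: FABP4 averaged 31.3 FPKM in MIX and 31.8 FPKM in OA cultures, PLIN1 averaged 1.75 and 1.84 FPKM, LEP had no reads, and ADIPOQ, a defining adipocyte gene, had 1 read in all 6 libraries together. FPKM is the authors' value per gene length and library. The matrix genes COL1A1 and MMP2, which mark fibroblasts and pre-adipocytes, averaged 3691 and 5153 FPKM in MIX cultures and 3766 and 5061 FPKM in OA cultures. Other members of that marker list were all but absent: DLK1 and DPP4 had no reads, and CD34 and PI16 had 7 and 8 reads in all 6 libraries together. The defining endothelial genes CDH5, KDR, EMCN and CLDN5 had no reads, while FLT1, VWF and TEK of the same list averaged 2.03, 0.65 and 0.864 FPKM in MIX cultures and 1.79, 0.597 and 0.918 FPKM in OA cultures. The leukocyte gene PTPRC had 1 read, and the macrophage genes CD68 and CD163 averaged 4.43 and 2.36 FPKM in MIX cultures and 4.67 and 2.37 FPKM in OA cultures. The markers thus do not bear out the label of mature adipocytes in full. In cultures of mixed cells, fewer cells of one type and less RNA per cell cannot be told apart.

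No gene passed the test between MIX and OA. With edgeR's quasi-likelihood test, the cow as a block and Benjamini-Hochberg adjustment, 0 of 13580 genes (0%) had an adjusted p under 0.05, and the smallest adjusted p was 0.999675. At an unadjusted p under 0.05 there were 403 genes, 2.97% of those tested, of which 189 (1.39%) were higher and 214 (1.58%) lower in MIX. The authors' deposited table for the same comparison holds 0 adjusted p-values under 0.05 among the 17741 p-values given, with 11 unadjusted ones under 0.05. Their test is not the same one: for RASL11B their log2 difference was 0.27, as in edgeR. Their p for it was 0.247, against 0.000772 in edgeR. Whether their test paired the cultures by cow is not known here. DESeq2 with the same block called 0 genes and gave 262 with an unadjusted p under 0.05.

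The size of the differences was bounded rather than unknown. The 95% interval of the MIX minus OA difference lay within 1.5-fold in either direction for 10132 genes (74.6%) and within 2-fold for 11873 genes (87.4%). Among the 9703 genes with at least 50 counts in every library it lay within 1.5-fold for 9469 genes (97.6%), and the median half-width of the interval was 0.20 on the log2 scale. Across those 9703 genes the root mean square log2 difference between the MIX and the OA culture of a cow was 0.153 in cow 4, 0.170 in cow 5 and 0.182 in cow 6. Between MIX cultures of different cows it ran between 0.482 and 0.989, and between OA cultures of different cows between 0.500 and 0.933. Animals thus differed far more than the treatments within an animal.

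The count of calls differed between fits. A fit of only the 6 compared libraries had the cow as a block and 2 residual degrees of freedom per gene, in place of 6. Both fits also used degrees of freedom that edgeR gains by pooling spread over genes. In the fit of 6 libraries, 29 genes had an adjusted p under 0.05 in edgeR, 12 higher and 17 lower in MIX. That is 0.223% of the 13003 genes tested in that fit. GNAS and VCAN, which are not among the genes named below, had the smallest adjusted p in it (edgeR, 6.18e-05 and 6.58e-05). PTGS2 then had an adjusted p of 0.000172. The 29 included 16 of the genes named below, among them TNC, LIPG, HMGCS1, CITED2, RASL11B, FADS2 and CCL2. All 29 had an unadjusted p under 0.05 in the fit of 12 libraries. Leaving out all 4 libraries of cow 6 gave 8 calls, 5 higher and 3 lower. Keeping every gene with at least 1 count gave 7 calls, 2 higher and 5 lower. VCAN, NOV, NUPR1, SEM1 and TNC were called in all of these fits, and only TNC of them is named below. No gene below is therefore described as changed, and unadjusted p-values are given to order the genes.

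**Figure D1:**
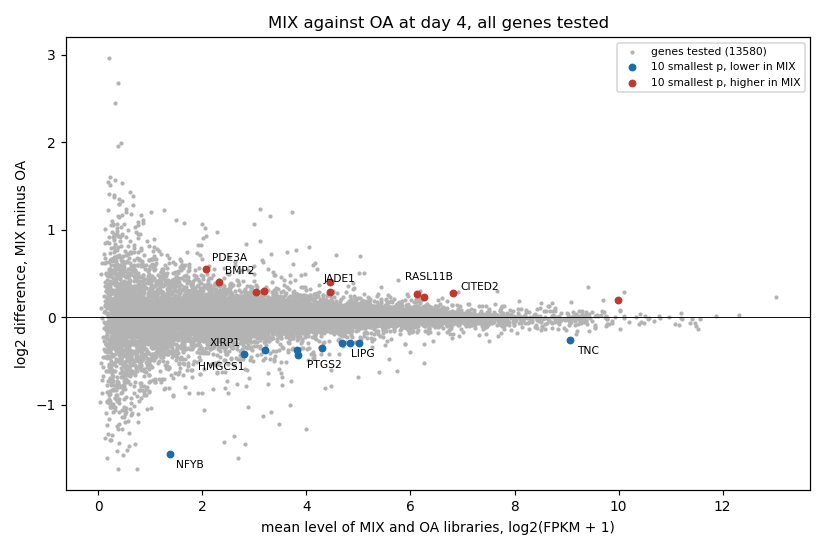
Log2 difference MIX minus OA at day 4 (y axis) against the mean level of the 6 libraries as log2(FPKM + 1) (x axis) for the 13580 genes tested. Blue and red points mark the 10 genes with the smallest unadjusted p lower and higher in MIX, all of which lie within 2-fold of 0 except NFYB at -1.57, and 0 of the 13580 genes passed the adjusted threshold.

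The gene with the smallest p was PTGS2 (chromosome 16), the inducible cyclooxygenase that starts prostaglandin synthesis. PTGS2 had 10.3, 10.6 and 12.8 FPKM in the MIX cultures of cows 4, 5 and 6, against 13.7, 13.7 and 18.6 FPKM in their OA cultures. Every MIX culture was below every OA culture. The log2 difference was -0.44 ± 0.11 (SE; 95% interval -0.67 to -0.21; edgeR unadjusted p = 0.00059, adjusted p = 0.999675). PA cultures of the same cows had 6.64, 6.93 and 12.2 FPKM and CON cultures 6.14, 8.73 and 12.4 FPKM, so in each cow the MIX value stood between PA and OA.

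A gene of lipid breakdown stood beside it among the 10 lower genes with the smallest p. LIPG (chromosome 24), an extracellular lipase of the endothelial type, had 5.46, 39.6 and 20.7 FPKM in MIX cultures, against 6.05, 48.1 and 27.8 FPKM in OA cultures. The cows differed several-fold in LIPG and the groups overlapped, yet MIX was below OA within each cow (-0.30 ± 0.08).

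HMGCS1 (chromosome 20) and ACAT2 (chromosome 9), enzymes of the first steps of the mevalonate route, were also in this group. HMGCS1 had 4.84, 5.85 and 4.37 FPKM in MIX cultures, against 5.42, 10.3 and 5.17 FPKM in OA cultures. The OA culture of cow 5 stood apart with the highest value, and the difference was -0.43 ± 0.12. For ACAT2 the values were 14.6, 22.8 and 37.4 FPKM in MIX cultures and 17.6, 31.1 and 42.5 FPKM in OA cultures, which is -0.30 ± 0.09, lower in 3 of 3 cows.

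The other lower genes included matrix and growth genes. TNC (chromosome 8), the matrix glycoprotein tenascin C, had 247, 562 and 678 FPKM in MIX cultures, against 319, 689.7 and 734 FPKM in OA cultures (-0.26 ± 0.07). CCND1 (chromosome 29), the cyclin that lets cells enter the cycle, had 13.3, 11.2 and 9.79 FPKM in MIX cultures, against 17.2, 16.4 and 11.1 FPKM in OA cultures (-0.37 ± 0.11). Both genes were lower in each cow, and their groups overlapped. WISP1 (chromosome 14), a secreted matrix-associated protein that WNT signalling induces, differed by -0.29 ± 0.09, and XIRP1 (chromosome 22), an actin-binding protein best known from muscle, by -0.38 ± 0.10. A gene model named NFYB on chromosome 9 had the widest estimate, -1.57 ± 0.42, at 0.483 to 1.17 FPKM in MIX cultures and 1.85 to 2.84 FPKM in OA cultures. A second gene model carries the same symbol, and reads shared between them could have been split, so that value is uncertain.

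Among the 10 higher genes with the smallest p, RASL11B (chromosome 6), a small GTPase of the RAS family, had 68.9, 79.3 and 77.4 FPKM in MIX cultures, against 62.5, 65.4 and 59.3 FPKM in OA cultures. Every MIX culture was above every OA culture, and the log2 difference was 0.27 ± 0.07 (95% interval 0.12 to 0.41; edgeR unadjusted p = 0.000772). CITED2 (chromosome 9), a transcriptional coregulator that competes with hypoxia factors, had 220.0, 85.9 and 61.3 FPKM in MIX cultures, against 182, 67.7 and 53.4 FPKM in OA cultures (0.27 ± 0.07). Cow 4 was the highest in both groups. BMP2 (chromosome 13), a growth factor of bone and fat differentiation, had 5.88, 3.97 and 3.72 FPKM in MIX cultures, against 4.66, 2.76 and 2.91 FPKM in OA cultures (0.40 ± 0.11).

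PDE3A (chromosome 5), a phosphodiesterase that breaks down cyclic AMP, had 8.27, 2.57 and 0.495 FPKM in MIX cultures, against 5.88, 1.73 and 0.275 FPKM in OA cultures. Its level differed between cows far more than between treatments, and the difference of 0.55 ± 0.16 was the largest of these 10. ACKR3 (chromosome 3), a receptor that scavenges the chemokine CXCL12, was abundant at 965 to 1289.7 FPKM in MIX cultures and 793 to 1167 FPKM in OA cultures (0.19 ± 0.06). UQCC3 (chromosome 29), an assembly factor of respiratory complex III, had 22.2, 24.1 and 25.6 FPKM in MIX cultures, against 17.3, 17.0 and 20.0 FPKM in OA cultures, with no overlap (0.41 ± 0.13). JADE1, CA13, KCNE4 and MARK1 completed the group, with differences between 0.23 and 0.30.

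**Figure D2:**
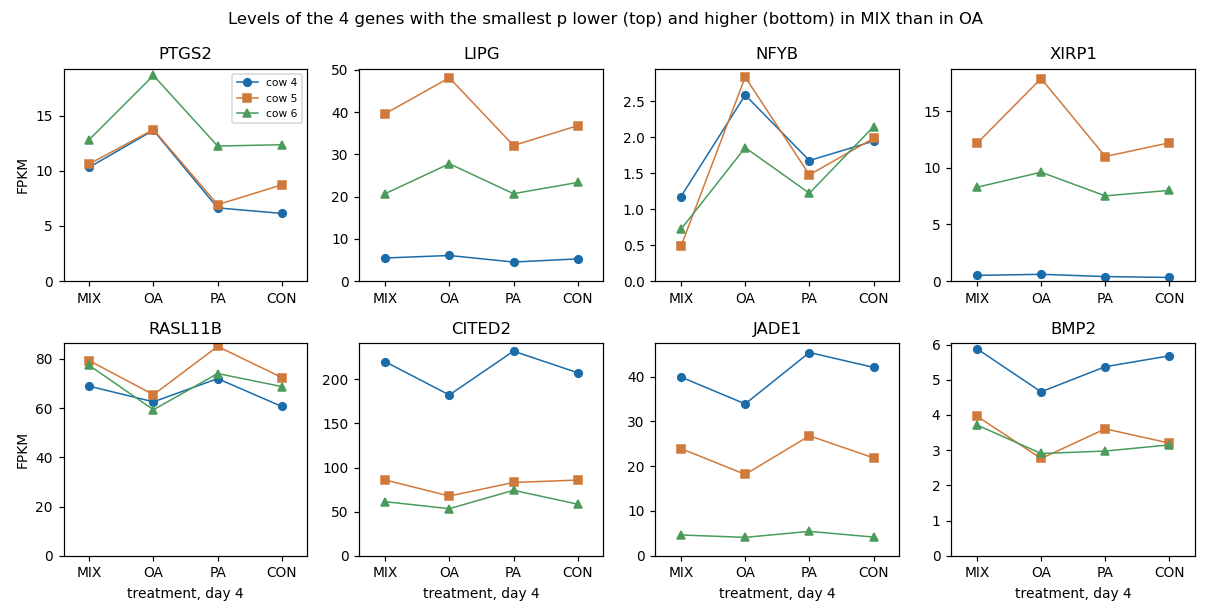
FPKM (y axes, from 0) in the MIX, OA, PA and CON cultures of cows 4, 5 and 6 at day 4 (lines join the cultures of a cow) for the 4 genes with the smallest p lower in MIX (top) and higher in MIX (bottom). PTGS2 runs between 10.3 and 12.8 FPKM in MIX and between 13.7 and 18.6 FPKM in OA, while for XIRP1, LIPG, CITED2 and JADE1 the cows differ far more than the treatments.

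Cholesterol synthesis and uptake held the most members with a small p. Of its 23 genes, 21 were lower in MIX, where 49.1% of all genes tested were lower, and the median log2 difference was -0.16 against 0.00 over all genes. An unadjusted p under 0.05 was reached by 8 members, all lower, which is 34.8% of the list against 2.97% of all genes. In 3 of 3 cows 10 members were lower, where 13.3% of all genes were. None passed the adjusted threshold. Beside HMGCS1 and ACAT2 these 8 included STARD4, a carrier of cholesterol between membranes (-0.39 ± 0.17), FDPS, which makes farnesyl diphosphate (-0.29 ± 0.10), NSDHL (-0.25 ± 0.11) and CYP51A1 (-0.24 ± 0.10), which remodel the sterol ring, and SREBF2 itself (-0.21 ± 0.09). The sterol sensor INSIG1 had -0.03 ± 0.18. The last enzymes of the route, DHCR7 (-0.06 ± 0.10) and SC5D (-0.05 ± 0.10), were closer to 0. So were other members, such as PMVK (-0.07 ± 0.18) and HSD17B7 (-0.05 ± 0.13). The 2 members higher in MIX were MVD (0.02 ± 0.11) and EBP (0.10 ± 0.12).

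The cows did not contribute equally to this list. Its median difference was -0.01 in cow 4, -0.33 in cow 5 and -0.19 in cow 6. The OA culture of cow 5 weighed heavily: without that library 15 of 23 members were lower, the median was -0.03 and 1 member had an unadjusted p under 0.05. Without all 4 libraries of cow 5, 18 members were lower, the median was -0.04 and none had an unadjusted p under 0.05. The summed level of the list ran between 269.9 and 297 FPKM in MIX cultures and between 272 and 376 FPKM in OA cultures.

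**Figure D3:**
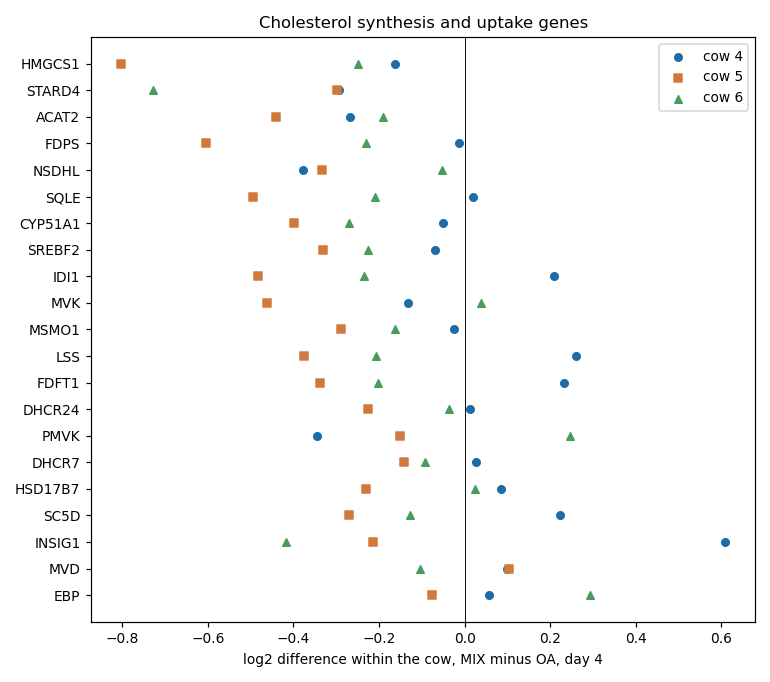
Log2 difference MIX minus OA within each cow at day 4 (x axis) for 21 of the 23 genes of cholesterol synthesis and uptake (y axis), ordered by their estimate over 3 cows. Cow 5 lies left of 0 for all but MVD and has the lowest value for HMGCS1, while cow 4 is scattered around 0 (median of the 23 genes -0.01 in cow 4, -0.33 in cow 5 and -0.19 in cow 6).

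The LXR list showed the opposite sign at small size. All 7 of its tested genes were higher in MIX, where 50.9% of all genes were, with a median of 0.07, and 3 were higher in 3 of 3 cows, where 14% of all genes were. ABCA1, which exports cholesterol, had 27.3, 13.9 and 2.51 FPKM in MIX cultures, against 20.2, 11.3 and 2.70 FPKM in OA cultures. It was higher in cows 4 and 5 and lower in cow 6, with an estimate of 0.26 ± 0.12 (edgeR unadjusted p = 0.0462). MYLIP had 0.24 ± 0.14 and was likewise lower in cow 6 (-0.05, against 0.30 and 0.42 in cows 4 and 5). The list median was 0.14 in cow 4, 0.07 in cow 5 and 0.004 in cow 6. The 2 LXR receptors themselves, NR1H3 and NR1H2, had 0.05 ± 0.09 and 0.07 ± 0.08.

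Desaturation and lipogenesis had 14 of 17 genes lower, where 49.1% of all genes were, with a median of -0.09. FADS2, the desaturase of polyunsaturated fatty acids, had 5.24, 8.71 and 9.81 FPKM in MIX cultures, against 5.12, 15.1 and 13.4 FPKM in OA cultures. It was lower in cows 5 and 6 and level in cow 4 (0.03), which gave -0.45 ± 0.14 (edgeR unadjusted p = 0.00474). SCD, which makes oleate, had 22.8, 34.7 and 19.0 FPKM in MIX cultures, against 19.8, 46.2 and 24.2 FPKM in OA cultures. Here too cow 4 went the other way, and the 95% interval of -0.43 to 0.02 included 0. Fatty acid synthase, FASN, was lower in 3 of 3 cows by -0.20 ± 0.08, and SREBF1, the regulator of these genes, had 0.07 ± 0.08.

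Fatty acid uptake and activation had 10 of 16 genes lower, where 49.1% of all genes were. An unadjusted p under 0.05 was reached by 4 of these 10, which is 25% of the list against 2.97% of all genes. CD36, the fatty acid transporter of the cell surface, had 1.99, 3.76 and 5.84 FPKM in MIX cultures, against 2.95, 4.29 and 7.65 FPKM in OA cultures (-0.38 ± 0.13). Lower values were found in each cow. ACSL1, which activates fatty acids to their CoA esters, had -0.18 ± 0.08 and VLDLR, a lipoprotein receptor, -0.20 ± 0.09. Among genes of triacylglycerol synthesis and lipolysis 12 of 17 were lower. LIPG was the sole member at an unadjusted p under 0.05, which is 5.88% of the list.

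The PPAR-responsive genes were evenly split, with 9 of 17 lower and a median of 0.00. An unadjusted p under 0.05 was reached by 2 members, 11.8% of the list against 2.97% of all genes. These 2 were CD36 and ACSL1, given above, both lower in 3 of 3 cows. PDK4, which blocks pyruvate oxidation, had 3.52, 3.34 and 1.42 FPKM in MIX cultures, against 3.91, 3.41 and 1.49 FPKM in OA cultures. CPT1A, which admits fatty acids to mitochondria, had 77.9, 63.0 and 68.1 FPKM in MIX cultures, against 83.2, 60.4 and 66.8 FPKM in OA cultures. Both groups overlapped throughout, and the 95% interval was -0.41 to 0.24 for PDK4 and -0.14 to 0.14 for CPT1A. For the lipid droplet protein PLIN2 it was -0.21 to 0.11, and for ANGPTL4, a secreted inhibitor of lipoprotein lipase, -0.13 to 0.20. The receptors PPARA (-0.09 ± 0.19), PPARD (0.04 ± 0.09) and PPARG (-0.23 ± 0.13) all had intervals that included 0, and PPARG, at 0.869 to 3.80 FPKM in MIX cultures and 1.18 to 4.53 FPKM in OA cultures, was lower in 3 of 3 cows.

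**Figure D4:**
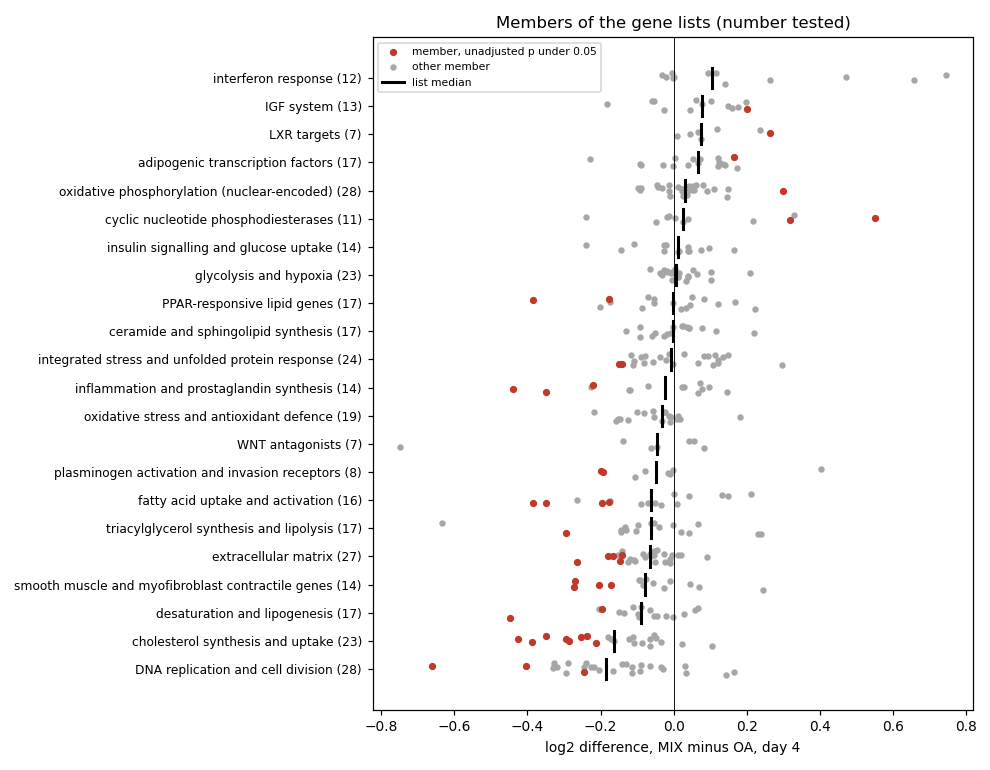
Log2 difference MIX minus OA at day 4 (x axis) of the tested members of 22 gene lists (y axis, number tested in brackets), with red points for an unadjusted p under 0.05, grey points for other members and black bars for list medians. The medians lie between -0.18 for DNA replication and cell division and 0.11 for interferon response, and 8 cholesterol genes are marked red, all lower in MIX.

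DNA replication and cell division had the lowest median of the 22 lists. Of its 28 genes 24 were lower in MIX, where 49.1% of all genes were. The median was -0.18, with -0.17 in cow 4, -0.28 in cow 5 and -0.08 in cow 6. An unadjusted p under 0.05 was reached by 3 genes, which is 10.7% of the list against 2.97% of all genes. In 3 of 3 cows 10 genes were lower, where 13.3% of all genes were. AURKB, a mitotic kinase, had 0.353, 1.60 and 3.16 FPKM in MIX cultures, against 1.12, 2.35 and 3.94 FPKM in OA cultures (-0.66 ± 0.26). MCM6, part of the replicative helicase, differed by -0.25 ± 0.09 and RRM2, which supplies deoxynucleotides, by -0.40 ± 0.18. These genes were expressed at low levels, the whole list summing to 96.8 to 148 FPKM in MIX cultures and 102 to 150.1 FPKM in OA cultures. CCNB1 and TYMS had estimates of 0.17 ± 0.20 and 0.14 ± 0.10.

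Extracellular matrix genes were lower for 24 of 27 members, where 49.1% of all genes were, by a median of -0.07. An unadjusted p under 0.05 was reached by 5 members: TNC, COL6A3 (-0.18 ± 0.07), COL4A1 (-0.17 ± 0.07), COL4A2 (-0.15 ± 0.07) and COL6A1 (-0.14 ± 0.06). That is 18.5% of the list, against 2.97% of all genes. The main fibrillar collagens were close to 0, with COL1A1 at 0.01 ± 0.06 and COL3A1 at -0.05 ± 0.07. Without the OA culture of cow 5, 17 members were lower and 1 had an unadjusted p under 0.05. Contractile genes of smooth muscle and myofibroblasts were lower for 11 of 14 members, with 4 at an unadjusted p under 0.05: ACTG2, LMOD1, ACTA2 and TGFB1I1. These 4 are 28.6% of the contractile list, against 2.97% of all genes. The list median was -0.04 in cow 4, -0.23 in cow 5 and -0.03 in cow 6, and without the libraries of cow 5 10 members were lower, none with an unadjusted p under 0.05. ACTA2, the actin of myofibroblasts, had 35.1, 118 and 304 FPKM in MIX cultures, against 41.5, 160.1 and 293 FPKM in OA cultures (-0.21 ± 0.10). It was higher in MIX in cow 6 alone, and reads of the near-identical ACTA2 and ACTG2 could have been split. The summed level of the contractile list ran between 1845 and 4715 FPKM in MIX cultures and between 1913 and 4684 FPKM in OA cultures, and the part of myofibroblast content in the matrix values was not tested.

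Inflammatory genes were evenly split, with 7 of 14 lower, where 49.1% of all genes were. An unadjusted p under 0.05 was reached by 3 members, PTGS2, CCL2 and CXCL8, all lower in MIX. That is 21.4% of the list, against 2.97% of all genes. CCL2, the chemokine that draws monocytes, had 60.1, 213 and 64.4 FPKM in MIX cultures, against 71.4, 247 and 74.0 FPKM in OA cultures. The difference was nearly the same in each cow, -0.24, -0.21 and -0.21, and came to -0.22 ± 0.07. CXCL8, a neutrophil chemokine, had -0.35 ± 0.15, and IL6 -0.23 ± 0.16, lower in 3 of 3 cows. CXCL5, at 134 to 1054 FPKM in MIX cultures and 172 to 1074 FPKM in OA cultures, had -0.12 ± 0.09, and its reads could be shared with related CXCL genes. NFKBIA (0.15 ± 0.10) and ICAM1 (0.10 ± 0.09) had estimates above 0.

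Higher members were scattered over other lists, and 50.9% of all genes tested were higher in MIX. IGFBP5, a secreted binding protein of insulin-like growth factors, had 733, 1059.9 and 871 FPKM in MIX cultures, against 629, 908 and 784 FPKM in OA cultures (0.20 ± 0.07), and 9 of 13 genes of the IGF system were higher. CEBPD, an early adipogenic transcription factor, had 432, 222 and 486 FPKM in MIX cultures, against 425, 180.5 and 428 FPKM in OA cultures (0.17 ± 0.07). Of 11 phosphodiesterases 7 were higher, with PDE3A and PDE4B (0.32 ± 0.15) at an unadjusted p under 0.05. That is 18.2% of the list, against 2.97% of all genes. UQCRB, a subunit of complex III, had 0.30 ± 0.11, in a list where 19 of 28 respiratory genes were higher by a median of 0.03. Interferon response genes had the highest median, 0.11, with 8 of 12 higher, none at an unadjusted p under 0.05, and MX1 at 0.47 ± 0.23.

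The remaining lists had medians near 0, and 49.1% of all genes tested were lower in MIX. Genes of the integrated stress response and of protein folding in the ER had a median of -0.01 (13 of 24 lower), those of ceramide and sphingolipid synthesis 0.00 (9 of 17 lower) and those of glycolysis and hypoxia 0.01 (10 of 23 lower). The stress factors ATF4 and DDIT3 had 0.12 ± 0.07 and 0.13 ± 0.09, and the chaperone HSP90B1 had -0.14 ± 0.07. HSP90B1 and PDIA6 (-0.15 ± 0.07) had an unadjusted p under 0.05, which is 8.33% of their list against 2.97% of all genes. Antioxidant genes were lower for 15 of 19 members by a median of -0.03, and the plasminogen list for 7 of 8, with PLAUR, the urokinase receptor, at -0.19 ± 0.07. PLAUR and TIMP3 (-0.20 ± 0.09) had an unadjusted p under 0.05, which is 25% of the plasminogen list against 2.97% of all genes. PLAUR differed by -0.16, -0.41 and -0.01 in cows 4, 5 and 6, and by -0.09 without the libraries of cow 5. Insulin signalling and the WNT antagonists had medians of 0.01 and -0.05, with 6 of 14 and 4 of 7 genes lower.

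MIX and OA cultures can each be set beside the PA cultures of the same cows, although these comparisons share libraries and are not independent. The median difference from PA over the cholesterol list was 0.00 for MIX and 0.18 for OA, and over DNA replication and cell division 0.06 for MIX and 0.29 for OA. PTGS2 differed from PA by 0.43 ± 0.11 in MIX cultures (edgeR adjusted p = 1) and by 0.87 ± 0.11 in OA cultures (adjusted p = 0.000991). For HMGCS1 these values were 0.16 ± 0.12 in MIX (adjusted p = 1) and 0.59 ± 0.12 in OA (adjusted p = 0.0285), and for LIPG 0.19 ± 0.08 (adjusted p = 1) and 0.48 ± 0.08 (adjusted p = 0.00692). ABCA1 differed from PA by -0.44 ± 0.12 in MIX and by -0.70 ± 0.12 in OA, and IGFBP5 by -0.22 ± 0.07 and -0.42 ± 0.07. A difference from PA past the threshold in OA and not in MIX does not show that MIX and OA differ, for which the test is the one above.

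Whether MIX departed from a blend of its parts was tested against the weighted mean 0.6 PA + 0.4 OA on the log2 scale, in the same fit. No gene passed (0 of 13580, 0%, edgeR), the smallest adjusted p was 0.999809, and 257 genes (1.89%) had an unadjusted p under 0.05. DESeq2 called 0 genes and gave 151 with an unadjusted p under 0.05. PTGS2 stood 0.08 above the weighted mean, LIPG at 0.00 and HMGCS1 at -0.07. Other named genes stood further from it: UQCC3 at 0.37, BMP2 at 0.27, PPARG at -0.35 and NFYB at -1.13. Their edgeR unadjusted p ran between 0.00274 and 0.00965, and none passed the adjusted threshold. Keeping every gene with at least 1 count gave 6 calls, and so did leaving out the libraries of cow 6. Leaving out the MIX culture of cow 6 alone gave 1.

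At day 7, in cows 1 to 3 and under another schedule, MIX against OA again gave no call: 0 of 12615 genes (0%) had an adjusted p under 0.05 in limma on log2(FPKM + 1), with 1313 (10.4%) at an unadjusted p under 0.05 and a smallest adjusted p of 0.299. Of the 20 leading genes of day 4, 19 were tested at day 7, where 10 had the same sign and 1 had an unadjusted p under 0.05. That gene was PTGS2, with 14.4, 2.06 and 5.16 FPKM in the day 7 MIX cultures of cows 1, 2 and 3, against 18.04, 3.41 and 5.72 FPKM in their OA cultures. It was lower in each of these cows too (limma -0.32 ± 0.13, unadjusted p = 0.032, adjusted p = 0.445). Of the 23 cholesterol genes 7 were lower at day 7, where 51.4% of all genes were, and their median was 0.04.

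Of the 69 genes named by rule, 63 were tested at day 7, and 44 of those 63 had gone one way in 3 of 3 cows at day 4. Of these 44, 7 went the same way in 3 of 3 cows at day 7, where 15.4% of all genes were lower and 13.6% higher in 3 of 3 cows. All 7 were lower in MIX: PTGS2, CCL2 (-0.08 ± 0.09 at day 7), COL6A3 (-0.20 ± 0.09), AURKB (-0.24 ± 0.10), PLAUR (-0.31 ± 0.13), LMOD1 (-0.07 ± 0.04) and HSP90B1 (-0.12 ± 0.06). DNA replication and cell division was lower for 24 of 28 genes at day 7 as at day 4, with a median of -0.13. Glycolysis and hypoxia genes were lower for 23 of 23 at day 7 (median -0.22) and for 10 of 23 at day 4. The day 7 median was -0.19 in cow 1, -0.42 in cow 2 and -0.02 in cow 3. The difference between the days, tested gene by gene in limma on 12132 genes, gave 0 adjusted p-values under 0.05, 735 unadjusted ones and a smallest adjusted p of 0.462. Cow, day and schedule cannot be told apart in it.

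**Figure D5:**
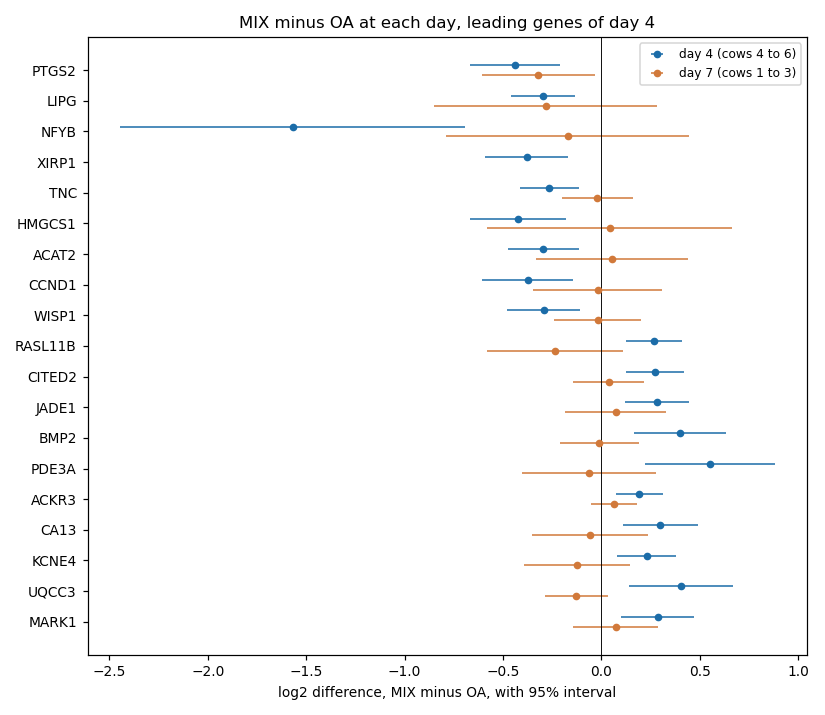
Log2 difference MIX minus OA with its 95% interval (x axis) at day 4 (blue, cows 4 to 6, edgeR) and day 7 (orange, cows 1 to 3, limma) for 19 of the 20 leading genes of day 4 (y axis). PTGS2 lies below 0 at both days (-0.44 and -0.32), XIRP1 was not tested at day 7, and the day 7 interval of every other gene tested includes 0.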

How the data were processed

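RNA was sequenced from 24 cultures, and 12 day 4 libraries entered the main fit. The tools named in the submitters' processing notes are featureCounts 1.5.0-p3, StringTie 1.3.3b and FastQC 0.11. Strand setting, aligner and build are not given in these sources, so no coordinates are given, and reads of overlapping or antisense genes cannot be told apart. The deposited day 4 table holds the authors' raw counts, their FPKM per library, log2 fold changes with p-values of their own comparisons, and a signal column per group, which the authors' file headers name by comparison (group means of normalized counts, from the values). The deposited day 7 table holds FPKM. Each has 27570 genes, 26 with date-like names, kept under their Ensembl identifiers.

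Counts were filtered (filterByExpr), scaled by TMM and fitted with edgeR 4.0.16 on 4 treatments with the cow as a block (R 4.3.3). Standard errors came from the F statistic. MIX and OA cultures of a cow deviated together (r = 0.880, 0.806 and 0.912 over genes, against -0.709 to 0.0369 for other pairs). The mean of each treatment was subtracted first, which ties the values of other pairs to those of the same cow, so they add no separate support. Day 7 used limma 3.58.1 on log2(FPKM + 1), for genes with at least 1 FPKM in 3 libraries. DESeq2 1.42.0 was an alternative. Figures used Python 3.11.15 and matplotlib 3.10.9. The fits were tested on simulated data.

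Named genes were up to 10 each way past the threshold, places left going to the smallest p (symbol, at least 2 FPKM in the higher group, same direction in 3 cows), 2 members of the smallest p per list, and a set of 25 genes. The 22 lists and 5 marker lists hold 447 genes, of which 434 were found. Genes, lists and the comparison were chosen with earlier results of these data known, and the test between days was added after the data were seen. The floor of counts covers counting error only. Intervals of the MIX minus OA difference came from the fits and also cover the spread between libraries left after treatment and cow. The cows are separate animals, with 1 culture of each treatment. Single values of 2 list members are not reported here.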

Additional observations from a re-analysis of the deposited data

Results flagged for a closer look

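CEBPD lay on opposite sides of 0 at the 2 days in every cow: MIX minus OA was 0.17 ± 0.07 (SE) at day 4, with 0.03, 0.30 and 0.18 in cows 4, 5 and 6, and -0.27 ± 0.07 at day 7, with -0.25, -0.43 and -0.13 in cows 1, 2 and 3. The day 4 minus day 7 difference was 0.439007 on the log2 scale, with an unadjusted p of 0.00036 and an adjusted p of 0.674 in limma, so it did not pass the threshold over 12132 genes. CEBPD is an early adipogenic transcription factor.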

How the results depend on the processing

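For MIX against OA at day 4 the count of genes past the threshold was 0 with the cow as a block and 0 without the replicate block, where 20 genes had an unadjusted p under 0.05. It was 0 with RLE scaling, DESeq2 or a minimum of 50 counts, 1 with limma on log2(FPKM + 1), 7 with no filter on low counts and 29 with only the 6 compared libraries. Leaving out a cow or a library gave 0 to 8. The cause of these moves was not tested. Against the weighted mean the count was 6 with no filter, 0 to 6 with a cow or library left out, and 0 under the other settings. At day 7 it was 0 under all 7 alternatives.

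Of 1102 values of named genes at day 4 under alternatives, 21 passed the threshold, 7 changed sign by a move of more than the SE, and the other 1074 stayed uncalled without such a change. The 7 arose by leaving out cows or libraries, over which ADM ran between -0.18 and 0.0471, ANGPTL4 between -0.0802 and 0.0884, PLIN2 between -0.15 and 0.0662 and PPARA between -0.25 and 0.14. All 55 day 7 values held. Of 432 list medians 388 moved by less than the spread between cows. The cholesterol median ran between -0.27 and -0.03 over cows and libraries left out, and that of DNA replication between -0.22 and -0.12.

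The fit had 3 cows, 13509548 to 17071654 counts per library and 6 residual degrees of freedom per gene, beside those pooled over genes. The 95% interval had a median half-width of 0.24 on the log2 scale over 13580 genes. It was 0.20 over the 9703 genes that reached 50 counts in each library. A difference within that half-width was not detectable for a typical gene, even unadjusted. No culture or sequencing batch is named in the labels.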
